A study of Caenorhabditis elegans with 6 samples.

Results

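The respiratory chain genes of the mitochondrial genome were examined in RNA from neural cells of Caenorhabditis elegans larvae. The 10 genes were chosen by name: ctb-1, ctc-1, ctc-2, ctc-3 and nduo-1 to nduo-6, out of 19793 genes in the table. Neural cells were isolated from first-stage (L1) larvae of 2 strains, with 3 biological replicates each, and poly(A)-selected RNA was sequenced. According to the paper, the larvae in its studies had hatched without food. The comparison asks how neural transcript levels differ when ADR-1, an RNA-binding protein of the adenosine deaminase family that does not itself edit RNA, carries mutations in its first double-stranded RNA-binding domain (dsRBD1).

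Both strains carried the adr-2 (ok735) deletion, which removes the A-to-I editing enzyme of the worm, together with RFP and GFP reporters driven by the neuronal rab-3 promoter (RFP with the 3′ end of C35E7.6, GFP with that of unc-54) and a genomic unc-119 rescue. In the control strain BB78, termed adr-2 (-) here, adr-1 was not engineered. In the mutant strain HAH57, named adr-2 (-);ADR-1 dsRBD1 in the study and dsRBD1 here, ADR-1 carried a 3X FLAG tag and replacements of the lysines of the KKxxK motif in dsRBD1. The tag was present in the mutant strain and not in the control, so the tag and the dsRBD1 mutations cannot be told apart. No strain with an intact adr-2 gene was analysed here.

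The mitochondrial genome encodes the core membrane subunits of the complexes that pass electrons along the inner mitochondrial membrane and pump protons. Complex I (NADH dehydrogenase) takes electrons from NADH, complex III (the cytochrome bc1 complex) passes them to cytochrome c, and complex IV (cytochrome c oxidase) gives them to oxygen, and the proton gradient then drives the ATP synthase. Most subunits of these complexes are encoded in the nucleus and imported, while complex II has only nuclear subunits. Neurons rely heavily on this chain for ATP at synapses and for ion pumping.

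The mitochondrial genome (sequence MtDNA of build WBcel235, equivalent to ce11) holds 12 protein-coding genes, 2 ribosomal RNA genes and 22 tRNA genes in the Ensembl 115 annotation, each made of 1 exon with no intron and all 36 on the plus strand. The table lists 14 of them: the 10 genes described here, atp-6, ndfl-4 and both ribosomal RNA genes. It lists 0 of the tRNA genes. Of the 10 genes, 6 encode subunits of complex I (nduo-1 to nduo-6), 1 encodes cytochrome b of complex III (ctb-1) and 3 encode complex IV subunits (ctc-1 to ctc-3). Neighbouring genes shared 1 base for nduo-3 and nduo-5, 1 for nduo-6 and ndfl-4, and 2 for nduo-1 and atp-6. Reads were kept only when they aligned to a single place in the genome, and the strand setting of the counting step is not given for these libraries in the sources used here. The reads came from poly(A)-selected RNA, so a level here is that of polyadenylated or co-captured transcript and not of total mitochondrial RNA.

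Depth ranged from 5686686 to 18382009 reads on genes per library. The library adr-2 (-) replicate 3 stood apart: it had the fewest reads, and rrn-3.1, a cytosolic ribosomal RNA gene, took 52.6% of them, against 12.6% to 21.3% in the other 5 libraries. Genes with reads numbered 15321, 15018 and 10532 in adr-2 (-) and 11971, 14778 and 15887 in dsRBD1. Thus dsRBD1 replicate 1 (12219263 reads) had reads on fewer genes than adr-2 (-) replicate 1 (11922671 reads). The 12 neuronal markers (among them rab-3, snb-1 and unc-13) had reads in every library, and their summed value was 35639 to 40663 in adr-2 (-) and 36321 to 46395 in dsRBD1. Markers of body wall muscle (summed value 159511 to 232962 in adr-2 (-), 189492 to 219469 in dsRBD1) and of the intestine (58067 to 83380.3 and 63769 to 91251) were abundant too, so the libraries were not purely neuronal by these markers. Reads on adr-2, which carries the deletion in both strains, numbered 95, 79 and 44 in adr-2 (-) and 2, 30 and 4 in dsRBD1, so each control library had more than each dsRBD1 library. In these bulk libraries, fewer cells of a type and less RNA per cell cannot be told apart.

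The mitochondrial transcripts took many reads in the neural cell libraries. By mean normalized value (the read count divided by a size factor for the library, and not by gene length), ctc-1 ranked 7, ctc-2 16, ctc-3 19 and ctb-1 47 among all genes in the table. The lowest of the 10 was nduo-6, at rank 1264. The longer genes collect more reads, so levels were compared between genes only per kb of annotated length.

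Per kb, the complex IV transcripts were the highest, then ctb-1, then the complex I transcripts. The mean normalized value per kb over the 6 libraries was 44376 for ctc-2, 36576 for ctc-3 and 32009.6 for ctc-1. It was 17409 for ctb-1. The complex I transcripts reached 12284 per kb for nduo-1 and 11763 for nduo-3, then 4646 for nduo-5, 3829 for nduo-4, 3073 for nduo-6 and 2989 for nduo-2. The order was stable between libraries, with 38 of the 45 gene pairs in the same order in all 6. The steps from ctc-1 to ctb-1, from ctb-1 to nduo-1 and from nduo-3 to nduo-5 were seen in 6 of 6 libraries. Neighbours that were not separated in every library were ctc-2 and ctc-3 (in this order in 5 of 6), ctc-3 and ctc-1 (5 of 6), nduo-1 and nduo-3 (4 of 6), nduo-5 and nduo-4 (5 of 6), nduo-4 and nduo-6 (5 of 6) and nduo-6 and nduo-2 (3 of 6).

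**Figure D1:**
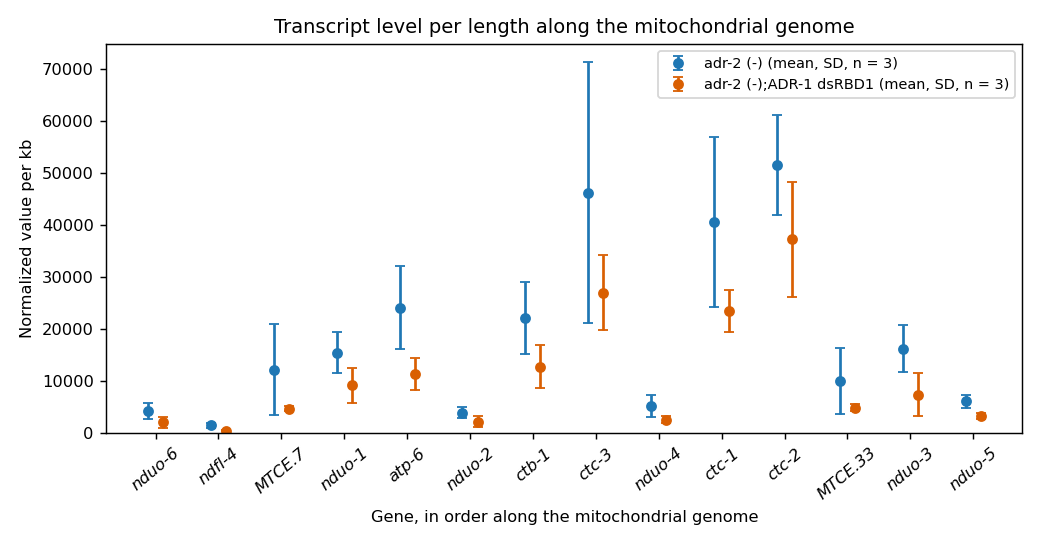
Normalized value per kb of gene length (y axis, linear from 0) for the 14 genes of the mitochondrial genome in the table, in their order along the genome (x axis); points are means and bars SDs of 3 libraries per genotype. The complex IV genes ctc-3, ctc-1 and ctc-2 stand highest in both genotypes, ndfl-4 is lowest, and the dsRBD1 mean is below the adr-2 (-) mean for every gene plotted.

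Transcripts of the complex I subunits had lower mean values in dsRBD1 than in adr-2 (-), and none of them passed the adjusted threshold in limma, fitted to log2(value + 1) of the 13705 genes whose values averaged 10 or more and adjusted over all of these. Log2 fold changes are given as dsRBD1 minus adr-2 (-) on that scale. The subunits ND2, ND4 and ND5 are the antiporter-like, proton-pumping subunits of the membrane arm by homology with the mammalian enzyme, ND1 lies where the quinone enters, and ND3 and ND6 are smaller membrane subunits beside it.

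The gene nduo-5 (WBGene00010967, MtDNA bases 11691 to 13272), which encodes ND5, had values of 10400.4, 7242 and 11056 in adr-2 (-) replicates 1, 2 and 3 and of 5701, 5557 and 4147 in dsRBD1 replicates 1, 2 and 3. Every dsRBD1 library lay below every adr-2 (-) library. The mean was 9566 ± 2039 (SD, n = 3) in adr-2 (-) and 5135 ± 859 (SD, n = 3) in dsRBD1, or 53.7% of the control. On the log2 scale the fold change was -0.89 (SE 0.24), with an unadjusted p of 0.00295 and an adjusted p of 0.691 in limma. With DESeq2 on the recovered reads the adjusted p was 0.0257, the only value among the 10 genes under 0.05.

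The gene nduo-3 (WBGene00010966, bases 11356 to 11691), which encodes ND3, had values of 5644, 3858 and 6831 in adr-2 (-) and 4019.9, 1391 and 1969.5 in dsRBD1. The groups overlapped only through dsRBD1 replicate 1, which lay above adr-2 (-) replicate 2. Its log2 fold change was the largest of the 10 at -1.25 (SE 0.35), a dsRBD1 mean at 45.2% of the control, with an unadjusted p of 0.00405 and an adjusted p of 0.703 in limma.

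The gene nduo-6 (WBGene00010957, bases 113 to 549), which encodes ND6, had values of 2019, 1077 and 2361 in adr-2 (-) and 585, 1443 and 572 in dsRBD1. Here dsRBD1 replicate 2 was above adr-2 (-) replicate 2, while dsRBD1 replicates 1 and 3 were below every control library. The dsRBD1 mean was 47.6% of the control (log2 fold change -1.14, SE 0.39, unadjusted p 0.0134, adjusted p 0.722 in limma). This was the member with the widest relative spread in dsRBD1, with an SD of 57.6% of its mean.

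The gene nduo-4 (WBGene00010963, bases 6506 to 7808), which encodes ND4, had values of 6381, 4061 and 9530.3 in adr-2 (-) and 4205, 3508 and 2252 in dsRBD1. The groups overlapped only between adr-2 (-) replicate 2 and dsRBD1 replicate 1. The dsRBD1 mean was 49.9% of the control, a log2 fold change of -0.96 (SE 0.32), with an unadjusted p of 0.0109 and an adjusted p of 0.708 in limma.

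The gene nduo-2 (WBGene00010961, bases 3389 to 4269), which encodes ND2, had values of 3576, 2449 and 4206 in adr-2 (-) and 2776, 889.6 and 1906 in dsRBD1. Again dsRBD1 replicate 1 was above adr-2 (-) replicate 2, and replicates 2 and 3 were below every control library. The log2 fold change was -0.99 (SE 0.37, unadjusted p 0.0195, adjusted p 0.739 in limma).

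The gene nduo-1 (WBGene00010959, bases 1763 to 2635), which encodes ND1, had values of 12436, 10703 and 17268 in adr-2 (-) and 11163, 7430.2 and 5344 in dsRBD1. The groups overlapped between the same pair of libraries. In limma its log2 fold change was -0.79 (SE 0.29, unadjusted p 0.0199, adjusted p 0.739), a dsRBD1 mean at 59.2% of the control.

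Cytochrome b, which carries the heme groups and quinone sites of complex III, is encoded by ctb-1 (WBGene00000829, bases 4504 to 5621). Its values were 21661, 18899.8 and 33551 in adr-2 (-) and 18957, 13881 and 9829 in dsRBD1. The lowest control library and the highest dsRBD1 library nearly coincided, and the groups overlapped by that pair. The dsRBD1 mean was 57.6% of the control, a log2 fold change of -0.80 (SE 0.31), with an unadjusted p of 0.0247 and an adjusted p of 0.741 in limma.

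None of the 3 complex IV transcripts reached an unadjusted p under 0.05 in limma. The gene ctc-1 (WBGene00010964, bases 7827 to 9428) encodes the catalytic subunit that reduces oxygen. Its values were 53067, 47031 and 95010.2 in adr-2 (-) and 43243, 38857 and 30468 in dsRBD1. Every dsRBD1 library was below every control library, and adr-2 (-) replicate 3 was far above the other control libraries. The log2 fold change was -0.74 (SE 0.36, unadjusted p 0.0652, adjusted p 0.741 in limma), a dsRBD1 mean at 57.7% of the control. On the recovered reads its unadjusted p was 0.0253 in edgeR (adjusted p 0.738) and 0.00823 in DESeq2 (adjusted p 0.182).

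The gene ctc-3 (WBGene00010962, bases 5678 to 6449) encodes a core subunit without metal centres. Its values were 29758, 19995 and 57273 in adr-2 (-) and 25774, 21795 and 14827 in dsRBD1. The overlap was wider here than for the other genes, since 2 dsRBD1 libraries were above adr-2 (-) replicate 2. The log2 fold change was -0.68 (SE 0.38, unadjusted p 0.102, adjusted p 0.741 in limma). Without adr-2 (-) replicate 3 it was -0.27.

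The gene ctc-2 (WBGene00010965, bases 9649 to 10348) encodes the subunit that accepts electrons from cytochrome c. Its values were 35857, 29506 and 42886 in adr-2 (-) and 31731, 29233 and 17166 in dsRBD1. Only dsRBD1 replicate 1 was above a control library. The log2 fold change, -0.50 (SE 0.32), was the smallest of the 10, with a dsRBD1 mean at 72.2% of the control, an unadjusted p of 0.140 and an adjusted p of 0.741 in limma. The 95% interval ran from -1.20 to 0.19.

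**Figure D2:**
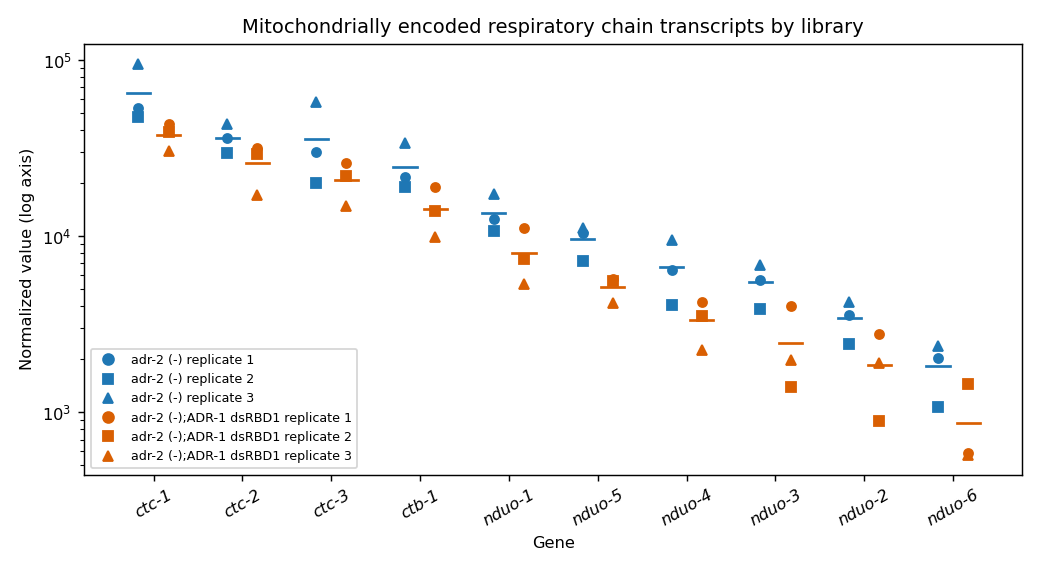
Normalized value (y axis, log scale) of the 10 mitochondrially encoded respiratory chain transcripts (x axis, ordered by control mean) in each library; colours mark the genotype, symbols the replicate number, and horizontal lines the means of 3 libraries. For every gene the highest point is adr-2 (-) replicate 3, and the genotypes are fully separated only for ctc-1 and nduo-5.

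All 10 transcripts therefore had a fold change below 0, from -1.25 to -0.50 with a median of -0.85, while 45.5% of all genes tested were below 0 and their median was 0.09. An unadjusted p under 0.05 with a lower level in dsRBD1 was reached by 7 of the 10 in limma, against 2.9% of all genes tested. The groups did not overlap, with dsRBD1 lower, for 2 of the 10, against 6.92% of all genes. After adjustment over all genes limma called none of the 10 (0% of all genes tested were called: 0 of 13705, with 872 at an unadjusted p under 0.05 and a smallest adjusted p of 0.129). edgeR's quasi-likelihood test also called 0 genes, with 898 at an unadjusted p under 0.05 (8 of the 10 lower, against 3.88% of all genes) and adjusted p-values of 0.503 to 0.818 for the 10. DESeq2 called 1 of the 10, nduo-5, against 1.98% of all genes it called lower. The 10 genes come from 1 small genome and share its transcripts and copy number, so they are not independent of each other.

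Individual libraries weighed on these counts. The highest of the 6 values was in adr-2 (-) replicate 3 for 10 of 10 genes, and the lowest was in dsRBD1 replicate 3 for 8 and in dsRBD1 replicate 2 for the other 2. Within the controls, adr-2 (-) replicate 2 was the lowest for 10 of 10. Without adr-2 (-) replicate 3, 2 of the 10 genes (nduo-3 and nduo-5) had an unadjusted p under 0.05 in limma, against 2.31% of all genes tested, and the median fold change was -0.63. Without adr-2 (-) replicate 2, the groups did not overlap for 10 of 10 (14.9% of all genes), 9 of 10 had an unadjusted p under 0.05 in limma (4.6% of all genes), and the median was -1.05. Without dsRBD1 replicate 1, the groups did not overlap for 8 of 10 (11.5% of all genes). Scaling by library totals in place of size factors left 2 of 10 at an unadjusted p under 0.05 in limma (2.09% of all genes) and 5 of 10 without overlap (5.88%), and TMM scaling left 4 of 10 without overlap (6.84%). With totals taken outside rrn-3.1 and the mitochondrial genome, 8 of 10 had an unadjusted p under 0.05 in limma (535 of 13678 genes). On that scaling 3 of 10 were without overlap (1211 of 13678). The fold change stayed below 0 for every one of the 10 genes in each of the 23 fits that were run.

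The DESeq2 call moved with the libraries as well. Its adjusted p for nduo-5 was 0.000985 without adr-2 (-) replicate 2 and 0.0153 without dsRBD1 replicate 1, and it was 0.0939 to 0.213 when any of the other 4 libraries was left out. Without adr-2 (-) replicate 2 it called ctc-1, nduo-4 and nduo-5 (3 of 10, against 2.76% of all genes). Without dsRBD1 replicate 1 it called ctb-1, nduo-1, nduo-2, nduo-3 and nduo-5 (5 of 10, against 2.06%). Without dsRBD1 replicate 2 it called nduo-6 (1 of 10, against 1.37%). Leaving out adr-2 (-) replicate 1, adr-2 (-) replicate 3 or dsRBD1 replicate 3 gave 0 of 10 calls by DESeq2, against 0.821%, 0.548% and 1.7% of all genes called lower. At an unadjusted p under 0.05 in DESeq2, 7, 3 and 4 of the 10 were lower in those fits. Among all genes, 805, 622 and 1029 were lower at that cutoff, where 13396, 14971 and 14020 genes had an adjusted p.

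As a share of all reads on genes, which does not depend on the size factors, the 10 transcripts took 1.68%, 1.35% and 1.51% in adr-2 (-) and 1.30%, 1.12% and 0.689% in dsRBD1. The groups did not overlap, although adr-2 (-) replicate 2 and dsRBD1 replicate 1 were close. The means were 1.51% ± 0.168 (SD, n = 3) and 1.04% ± 0.316 (SD, n = 3), a ratio of 0.686. The widest exact 95% binomial interval of a library was 1.504% to 1.524%, in adr-2 (-) replicate 3, and covers counting error only. Because rrn-3.1 took much of adr-2 (-) replicate 3, the shares were also taken of the reads outside rrn-3.1: they were then 2.04%, 1.54% and 3.19% in adr-2 (-) and 1.54%, 1.30% and 0.876% in dsRBD1. On that basis the lowest control library and the highest dsRBD1 library were at about the same level, and adr-2 (-) replicate 3 moved from the middle of its group to the top. The ratio of means became 0.549. The summed normalized values of the 10 genes, 144823 to 279973 in adr-2 (-) and 88480.2 to 148154 in dsRBD1, overlapped.

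The make-up of the mitochondrial reads differed less between the genotypes than their amount. Complex IV transcripts took 67.3% ± 2.12 (SD, n = 3) of the reads on the 10 genes in adr-2 (-) and 70.4% ± 2.26 (SD, n = 3) in dsRBD1. Complex I transcripts took 20.3% ± 2.04 and 17.9% ± 1.48 (SD, n = 3 each), and ctb-1 took 12.3% ± 0.617 and 11.7% ± 0.950. The genotypes overlapped for each of the 3 complexes and for each gene taken alone.

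The genes moved together over the 6 libraries to different degrees. The correlation (Pearson's r of log2(value + 1)) of a gene with the mean of the other 9 was highest for nduo-4, at 0.988, and lowest for nduo-6 at 0.690 and nduo-2 at 0.710. These are descriptions over 6 libraries that share depth, size factor and genotype. For nduo-6 the library that departed was dsRBD1 replicate 2, where it was the highest of its group, while nduo-2 and nduo-3 were at their lowest there.

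The other 4 listed genes of the mitochondrial genome were lower in dsRBD1 without overlap, against 6.92% of all genes tested. The gene atp-6, which encodes the membrane subunit that forms the proton path of the ATP synthase, had values of 13526, 10229 and 19766 in adr-2 (-) and 8842, 6371 and 5171 in dsRBD1. Its log2 fold change was -1.08 (SE 0.29, unadjusted p 0.00289, adjusted p 0.691 in limma, adjusted p 0.0245 in DESeq2). The small complex I subunit gene ndfl-4 had values of 351, 225 and 426 in adr-2 (-) and 107, 104.1 and 68.0 in dsRBD1, a dsRBD1 mean at 27.9% of the control. Its log2 fold change, -1.81 (SE 0.56), had an adjusted p of 0.703 in limma and 0.0269 in DESeq2.

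Both mitochondrial ribosomal RNAs, which are the RNA core of the organelle's own ribosome, followed the same direction. The small one, MTCE.7, had values of 5849.9, 4174 and 15372 in adr-2 (-) and 2821, 3410.3 and 3477 in dsRBD1 (log2 fold change -1.16, adjusted p 0.708 in limma, 0.0449 in DESeq2). The large one, MTCE.33, had values of 6546, 5565 and 16465 in adr-2 (-) and 5273, 4104 and 4292 in dsRBD1 (log2 fold change -0.90, adjusted p 0.741 in limma, 0.147 in DESeq2). Their highest value was again in adr-2 (-) replicate 3, where rrn-3.1 took 52.6% of the reads. All 4 of these other mitochondrial genes were lower at an unadjusted p under 0.05 in limma, against 2.9% of all genes tested. DESeq2 called 3 of them lower, against 1.98% of all genes. Without adr-2 (-) replicate 3 the log2 fold changes were -0.62 for MTCE.7 and -0.41 for MTCE.33, and the DESeq2 adjusted p of MTCE.33 was 0.638. The DESeq2 calls on atp-6 and ndfl-4 were each kept in 2 of 6 fits with a library left out (without adr-2 (-) replicate 2 and without dsRBD1 replicate 1), and that on MTCE.7 in 1 of 6 (without adr-2 (-) replicate 2). In the other fits their adjusted p-values were 0.133 to 0.194 for atp-6, 0.126 to 0.212 for ndfl-4 and 0.0824 to 0.330 for MTCE.7.

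The nuclear genes for the same complexes did not share the direction of the mitochondrial ones. Of 57 nuclear genes for complexes I to IV, cytochrome c and the ATP synthase, 56 were tested. At an unadjusted p under 0.05 in limma, 1 was lower and 1 higher, against 2.9% and 3.46% of all genes tested. Without overlap 1 was lower and 3 higher, against 6.92% and 6.8%. A fold change below 0 was found for 20, against 45.5% of all genes. The median of the 56 was 0.10, near the median of 0.09 of all genes. Limma and DESeq2 called 0 of them after adjustment. The list was not chosen by its values, but it was drawn up with earlier results of these data known.

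For complex I, 0 of 20 nuclear genes passed an unadjusted p of 0.05 in limma, and the median was 0.09. The largest departure by p was nuo-5, a subunit of the electron-input arm, with means of 2909 ± 964 in adr-2 (-) and 4019 ± 492 in dsRBD1 (SD, n = 3 each, log2 fold change 0.51, adjusted p 0.741 in limma). For complex III, 0 of 9 passed, with a median of 0.00, and for complex IV and cytochrome c 0 of 8 tested passed, with a median of 0.08.

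Complex II, which has no mitochondrially encoded subunit, had 4 of 5 genes above 0 and a median of 0.30. The catalytic flavoprotein subunit gene sdha-1 had values of 1827, 2405 and 1548 in adr-2 (-) and 3116, 2718 and 2811 in dsRBD1, all above every control library. Its log2 fold change was 0.60 (SE 0.22, unadjusted p 0.0199, adjusted p 0.739 in limma). The iron-sulfur subunit gene sdhb-1 was also above the control in every dsRBD1 library, with a log2 fold change of 0.40 (unadjusted p 0.0773, adjusted p 0.741 in limma). The gene below 0 was sdha-2, a second flavoprotein gene of low level, with a log2 fold change of -1.61 (adjusted p 0.741 in limma) and overlapping libraries. Of the 5 complex II genes 1 was higher at an unadjusted p under 0.05, against 3.46% of all genes tested, and 2 were higher without overlap, against 6.8%. Among 14 nuclear ATP synthase genes, 5 had a fold change below 0, and asg-1 alone had an unadjusted p under 0.05 in limma. Its values were 1241, 472 and 921 in adr-2 (-) and 409, 323 and 381 in dsRBD1 (log2 fold change -1.14, unadjusted p 0.0101, adjusted p 0.703 in limma). The list median was 0.08.

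**Figure D3:**
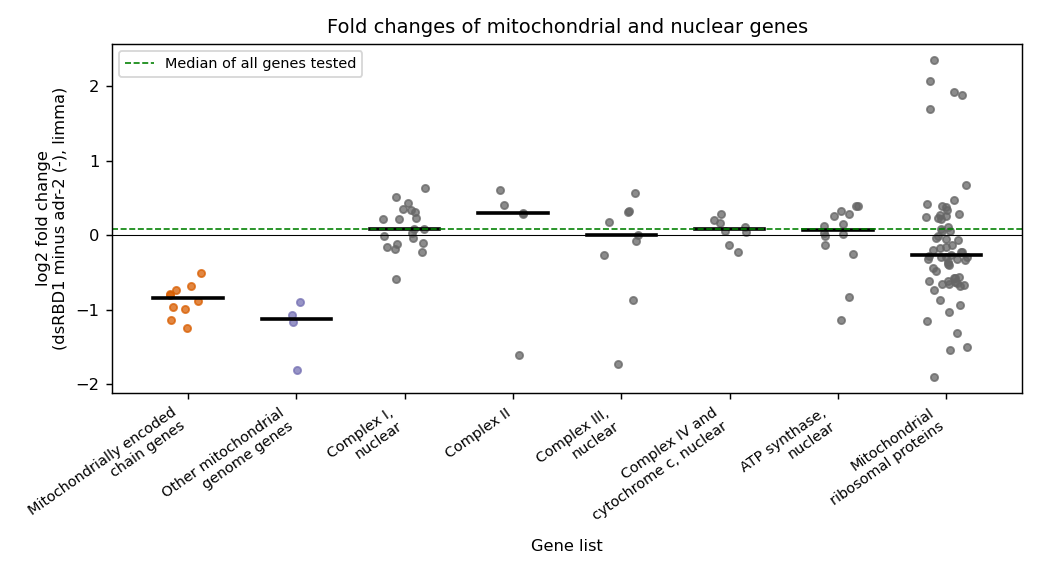
Log2 fold change (y axis, dsRBD1 minus adr-2 (-), limma) of each gene tested in 8 lists (x axis); points are genes, black bars list medians, and the dashed line the median of all genes tested. The 10 mitochondrially encoded chain genes lie between -1.25 and -0.50 and the other mitochondrial genes between -1.81 and -0.90, while the medians of the nuclear lists of complexes I, III and IV and the ATP synthase lie between 0.00 and 0.09.

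The balance of mitochondrial to nuclear subunit transcripts was compared within each library, where the size factor cancels. For complex I, the summed value of the 6 mitochondrial genes over that of the 20 nuclear genes was 1.49, 1.08 and 2.08 in adr-2 (-) and 0.814, 0.764 and 0.619 in dsRBD1. These sums are not corrected for gene length, so only differences between libraries can be read from the ratio, and every dsRBD1 library was below every control library. For complex III the ratio was 1.08, 0.876 and 1.81 in adr-2 (-) and 0.760, 0.701 and 0.488 in dsRBD1. For complex IV with cytochrome c it was 4.17, 3.63 and 6.44 in adr-2 (-) and 3.11, 3.05 and 2.26 in dsRBD1. The genotypes did not overlap for any of the 3 complexes, and adr-2 (-) replicate 3 and dsRBD1 replicate 3 were the extremes each time. No test was made of these sums, which are scores over the chosen genes.

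**Figure D4:**
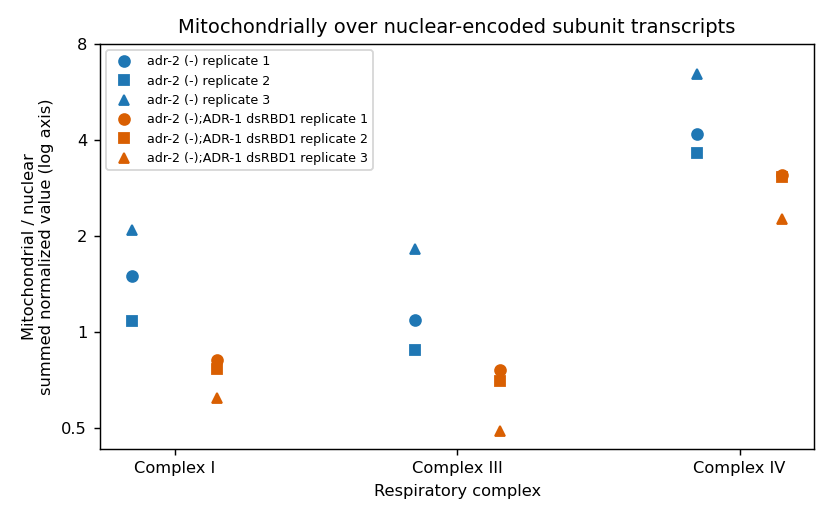
Summed normalized value of the mitochondrially encoded subunits divided by that of the nuclear-encoded subunits (y axis, log scale) for complexes I, III and IV (x axis, complex IV with cytochrome c); each point is a library, coloured by genotype with symbols for the replicate number. The 3 dsRBD1 libraries lie below the 3 adr-2 (-) libraries for every complex.

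Genes that maintain and express the mitochondrial genome showed no common direction. Of 10 such genes 0 had an unadjusted p under 0.05 in limma, 4 were below 0 and the median was 0.22. The largest difference was in mtss-1, the mitochondrial single-stranded DNA-binding protein gene, with values of 235.2, 225 and 1109 in adr-2 (-) and 231, 161 and 85.2 in dsRBD1 (log2 fold change -1.40, adjusted p 0.741 in limma). Its control mean rested on adr-2 (-) replicate 3. The translation elongation factor genes gfm-1 and tufm-1 had log2 fold changes of 0.35 each.

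Mitochondrial ribosomal protein genes, which are nuclear and whose products translate the 12 mitochondrial messages, had a median of -0.27, with 43 of 64 below 0. At an unadjusted p under 0.05, 3 were lower (mrpl-10, mrpl-36 and mrpl-53, against 2.9% of all genes tested) and 0 higher. The gene mrpl-53 had means of 306 ± 187 in adr-2 (-) and 73.9 ± 17.6 in dsRBD1 (SD, n = 3 each, log2 fold change -1.90), with an adjusted p of 0.722 in limma and 0.0487 in DESeq2, the only call of the list by DESeq2. Of the 64 genes, 5 were lower in dsRBD1 without overlap, these 3 among them, and 0 were higher. Among all genes tested the shares were 6.92% and 6.8%, and DESeq2 called 1.98% lower.

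In the list of mitochondrial stress and quality control, 2 of 12 genes were higher in dsRBD1 at an unadjusted p under 0.05 in limma and 0 were lower, against 3.46% and 2.9% of all genes tested. The mitochondrial chaperonin gene hsp-60 had values of 2423, 3326 and 2078 in adr-2 (-) and 4113, 3944 and 3487 in dsRBD1, above every control library (log2 fold change 0.58, unadjusted p 0.0239, adjusted p 0.741 in limma). The mitochondrial Hsp70 gene hsp-6 had a log2 fold change of 0.59 (unadjusted p 0.0380, adjusted p 0.741 in limma), and its libraries overlapped. The transcription factor gene atfs-1, which drives the mitochondrial unfolded protein response, had a log2 fold change of 0.59 (unadjusted p 0.0744, adjusted p 0.741 in limma). None of the 3 was called by DESeq2, with adjusted p-values of 0.362, 0.387 and 0.587.

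Among the markers of other cells, the summed values did not overlap between the genotypes for the germline and early embryo and for the pharynx. The 11 germline and early embryo markers, among them pgl-1, glh-1 and pie-1, had a summed value of 1405 to 5630.4 in adr-2 (-) and 674.7 to 1091 in dsRBD1. All 11 had a fold change below 0, against 45.5% of all genes tested, with a median of -3.01. Of the 11, 8 were lower at an unadjusted p under 0.05 in limma, against 2.9% of all genes. Without overlap 7 were lower, against 6.92%, and DESeq2 called 6 of them lower, against 1.98%. Only 1 of the 11 had no reads in a library, adr-2 (-) replicate 2. The sum was highest in adr-2 (-) replicate 3 and lowest of the controls in adr-2 (-) replicate 2, the same order of control libraries as for the summed mitochondrial transcripts. Within dsRBD1 the orders differed: the germline sum was 827, 674.7 and 1091 in replicates 1, 2 and 3, highest in replicate 3, where the mitochondrial sum was lowest. The 6 pharynx markers had a summed value of 52930.2 to 69090.2 in adr-2 (-) and 74115 to 92217 in dsRBD1, and all 6 had a fold change above 0. Of these, 1 was higher at an unadjusted p under 0.05 in limma, against 3.46% of all genes tested. Without overlap 2 were higher, against 6.8%, and limma and DESeq2 called 0 after adjustment. Markers of neurons, body wall muscle, intestine, hypodermis, glia and coelomocytes overlapped between the genotypes in their sums. The part of the germline and pharynx differences in the levels of the mitochondrial transcripts was not tested.

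The genes outside the mitochondrial genome whose pattern over the 6 libraries was most like the mean of the 10, among 8189 genes whose values averaged 100 or more, were Y37E3.8 (Pearson's r 0.991), air-1 (0.988), eif-2gamma (0.987), apn-1 (0.986) and wago-1 (0.986). The gene air-1 encodes an Aurora kinase, eif-2gamma a translation initiation factor subunit, apn-1 a DNA repair endonuclease and wago-1 an Argonaute protein of the germline. In air-1 the values were 314, 99.8 and 478 in adr-2 (-) and 121, 45.1 and 27.2 in dsRBD1, again with adr-2 (-) replicate 3 highest and dsRBD1 replicate 3 lowest. The 6 libraries share depth and genotype, and these values describe likeness only.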

How the data were processed

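RNA-seq libraries of neural cells from 3 biological replicates per strain were analysed. The deposited values are a signal: the authors aligned 75 bp single-end reads with STAR 2.7.8a to the WS275 genome, discarded reads with several alignments, made a count per gene and divided each library's counts by its DESeq2 size factor. In every library 100% of values were whole multiples (within 0.1 read) of the value of 1 read, so reads were recovered. The deposited fold change and p-value columns of the authors' own comparison were not used. Genes averaging 10 or more were tested on log2(value + 1) with limma 3.58.1 (trend, R 4.3.3, Benjamini-Hochberg over all genes). A call needed an adjusted p below 0.05 together with a log2 fold change beyond 0.5 in either direction. The recovered reads were also fitted with edgeR 4.0.16 and DESeq2 1.42.0, and limma was repeated with other pseudocounts, filters and scalings and with each library left out, as was DESeq2. Fits were tested on simulated data. A fold change of a low gene on the log2(value + 1) scale can be smaller or larger than in a count model. For aat-1 it was 3.08 in limma and 1.22 in edgeR, and for abt-3 -2.04 and -7.62.

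The text names the 10 genes, the other mitochondrial genes in the table, at most 3 genes with the lowest unadjusted p of each nuclear list, and the 5 genes most like the 10. Of the listed genes, 13 were found under an older name. The members and lists were chosen with earlier results of these data known. The marker unc-54 was left out because the reporters carry its 3′ end. Sequences are not printed here.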

Additional observations from a re-analysis of the deposited data

How the results depend on the processing

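The 10 mitochondrially encoded genes kept a fold change below 0 in each of the 23 fits (230 single-gene values). In the alternative fits other than the later DESeq2 ones, 149 of 150 single-gene values stayed on the same side of the threshold. The exception was nduo-5 with DESeq2 (-0.90). The count of genes called was 0 in limma, 3 with no filter, 317 with DESeq2 and 0 to 11 with a library left out. The DESeq2 fits with a block or a library left out were chosen after seeing the data, and calls on single genes changed in them as well: 120 to 519 genes with a library left out (144, 519 and 120 without adr-2 (-) replicates 1, 2 and 3, and 443, 195 and 247 without dsRBD1 replicates 1, 2 and 3) and 251 with a replicate block. Of the 10, DESeq2 called 1, against 1.98% of all genes called lower. With the replicate block it called 1, nduo-3 (adjusted p 0.00731), against 1.54%, and the adjusted p of nduo-5 was 0.0567. With a library left out DESeq2 called 0 to 5 of the 10, against 0.548% to 2.76% of all genes. The number lower at an unadjusted p under 0.05 in limma was 7, and 2 with library totals (2.09% of all genes). With totals outside rrn-3.1 and the mitochondrial genome it was 8 (535 of 13678 genes). With a library left out it was 2 (2.31% of all genes) to 9 (4.6%). The number without overlap was 2, 4 with TMM scaling (6.84% of all genes) and 5 with library totals (5.88%). With totals outside rrn-3.1 and the mitochondrial genome it was 3 (1211 of 13678 genes). With a library left out it was 2 to 10, the 10 coming without adr-2 (-) replicate 2 (14.9% of all genes). The median ran from -1.05 to -0.63 and the ratio of read shares from 0.598 to 0.801 with a library left out. Library totals moved the median of all genes to 0.21, against which the median of the 10 was -0.71. With totals outside rrn-3.1 and the mitochondrial genome these medians were -0.04 and -0.98. The cause of these shifts was not tested. Replicate numbers did not pair the samples (correlations of -0.09, 0.04 and -0.06 over 13705 genes), and the highest correlation was between adr-2 (-) replicate 1 and dsRBD1 replicate 3, at 0.15. A limma fit with the replicate block called 21 genes, 0 of them among the 10. Depth limits adr-2 (-) replicate 3 most: 3 reads there are 5.28e-05% of its total.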
